A study of Mus musculus with 4 samples.

Results

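The regions described here are narrow peaks of histone H3 lysine 36 trimethylation (H3K36me3) that lay around the 3' ends of protein-coding genes. A narrow peak was taken when it was on an autosome, when its midpoint was within 2000 bp of the 3' end of a protein-coding gene of 20 kb or longer, and when it was not within 1000 bp of any protein-coding gene start. The choice used the position of a peak and the gene annotation and no measured level. Of 131194 narrow peaks in both strains, 3793 met it. In B6 they were 1766 of 58502 narrow peaks, of which 54236 were on autosomes, and in KI they were 2027 of 72692, of which 68189 were on autosomes. The annotation gave 9328 such 3' ends at 9321 positions on 19 autosomes. Only 59 of the B6 peaks and 67 of the KI peaks were in reach of more than 1 end, and each was given to the nearest.

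The study profiled H3K36me3 by ChIP-seq in spermatocytes of 2 kinds of mice at 14 days post-partum (dpp). B6 is the inbred strain C57BL/6J, and KI is B6.Cg-Prdm9<tm1.1Kpgn>/Kpgn, a knock-in on the same background in which exon 11 of Prdm9, the exon that encodes the zinc fingers of PRDM9, comes from the allele of CAST/EiJ mice. All other alleles are shared, and neither group was treated. Chromatin was cut with MNase, and an input of the same strain, labelled 15 dpp, was the control. The labels name the antibody target H3K36me6 and the titles name it H3K36me3, which is the name used here. The authors merged 2 biological replicates of each strain before calling peaks, so that each strain has 1 list of broad regions and 1 list of narrow peaks within them. These lists hold positions on mm9 and no heights, scores or read numbers. The depth behind a single peak is therefore unknown, the values below carry no error between replicates, and no test between strains or sides was run. The intervals given are exact (Clopper-Pearson) 95% intervals, which cover counting error only. The merged KI reads were deeper than those of B6, and depth and strain cannot be told apart in these lists.

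H3K36me3 is written across the bodies of transcribed genes by SETD2, which travels with elongating RNA polymerase II. The mark is typically low at gene starts and higher toward the 3' end. Transcription does not stop at the end of the messenger RNA, because the polymerase runs on past the cleavage and polyadenylation site before it is released. Cleavage follows an upstream signal in the RNA, most often the hexamer AAUAAA, which reads AATAAA in the DNA. In male germ cells the meiotic methyltransferase PRDM9 also places H3K36me3 at recombination hotspots, the positions of which its zinc fingers set.

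The 3' ends themselves can be read in the sequence. The last 30 bases of 8 genes described below are printed because each has a narrow peak within its window of 2 kb, on the end itself at Hnrnpf and Kdm4d and up to 1991 bp from it at Ttc38. They are given 5' to 3' on the strand of the gene, from the mm9 genome and the GENCODE annotation of that build, with AATAAA in capitals.
Hnrnpf, chr6:117875610-117875639, plus strand: ttttcttaaAATAAAgactttttcacaatg
Synj2bp, chr12:82459847-82459876, minus strand: atagaggaAATAAAgaataacttcatcaga
Ttc38, chr15:85689223-85689252, plus strand: aaAATAAAATAAAaatatttttaaagccaa
Lmbrd1, chr1:24823115-24823144, plus strand: atattaaaaggaactttggttcccaaatgc
Pik3ap1, chr19:41346863-41346892, minus strand: gctgtctgtgcaatgtctggatatataaat
Smyd2, chr1:191704371-191704400, minus strand: aggaagaaAATAAAagagccagtcattgaa
Aff1, chr5:104284312-104284341, plus strand: atttAATAAAaatttagagaaatgattgga
Kdm4d, chr9:14266992-14267021, minus strand: cacaAATAAAgcaaaacagccaaaaggtta
The hexamer was searched on the strand of the gene only. Among these 8 ends, those of Lmbrd1 and Pik3ap1 have no AATAAA in their last 30 bases. Ttc38 has 2 overlapping copies, and the other 5 ends have 1 each. Its first base is 21 to 26 bases from the 3' end, the last base counted as 1 and the copy nearest the end taken at Ttc38. Of all 9328 ends, 58.2% had AATAAA in their last 40 bases (57.2% to 59.2%). The 1632 ends with a narrow peak in B6 had it in 57.2% of cases (54.8% to 59.6%), and the 1842 ends with one in KI in 58.1% (55.9% to 60.4%). It was 59.5% (53.7% to 65.1%) at the B6 ends and 60.9% (55.3% to 66.2%) at the KI ends with a narrow peak within 250 bp. Each of these 4 intervals includes the share of all ends.

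Over the 2 kb on each side, narrow peaks were denser inside the 3' end than past it in both strains. In B6, 1098 peaks had their midpoint inside the gene and 668 lay past the end, a share inside of 62.2% (59.9% to 64.4%). In KI, 1181 were inside and 846 past, a share of 58.3% (56.1% to 60.4%). The sequence that could hold a peak was 18.1 Mb inside and 17.3 Mb past, the difference being bases near the starts of other genes. Per Mb there were 60.8 B6 peaks inside and 38.6 past, a ratio of 1.58 (1.43 to 1.74). In KI there were 65.4 inside and 48.9 past, a ratio of 1.34 (1.22 to 1.46). The interval of each ratio was carried over from that of the share inside. Within 1 kb of the end the ratio was 1.3 in B6 (1.14 to 1.47) and 1.11 in KI (0.983 to 1.25), so that for KI an equal density on both sides lay within the counting interval at that distance. KI had 1.26 times as many autosomal narrow peaks as B6, 1.08 times as many inside the 3' ends and 1.27 times as many past them. The higher KI count around 3' ends thus lay mostly past the end. The widths were alike on both sides, with a median of 318 bp inside and 329 bp past in B6, 321 bp and 324 bp in KI, and 312 bp and 318 bp over all autosomal peaks of B6 and KI.

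The density just past the last base of the gene was about as high as just before it, and it was lower farther out. In the counts by steps of 250 bp, 500 bp or 1 kb, a peak was counted at every end in reach and not only at the nearest. In B6 the last 500 bp of the gene held 281 peaks, or 61.2 per Mb, and the first 500 bp past the end held 279 peaks, also 61.2 per Mb. The next 500 bp held 164 peaks, 36.3 per Mb, and the outermost 500 bp of the window, from 1500 to 2000 bp past the end, held 120 peaks, 27 per Mb. In KI the same 4 bins held 316, 305, 234 and 154 peaks, or 68.8, 66.9, 51.8 and 34.6 per Mb. In steps of 250 bp, B6 had 156 peaks just inside the end and then 148, 131, 88 and 76 going outward, and KI had 152 and then 172, 133, 125 and 109. The largest difference between neighbouring steps past the end was from 57.6 to 38.9 per Mb at 500 bp in B6, and from 75.3 to 58.5 per Mb at 250 bp in KI. Farther out the density was somewhat higher again, at 39.5 per Mb for B6 and 45.7 for KI between 9500 and 10000 bp past the end.

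**Figure D1:**
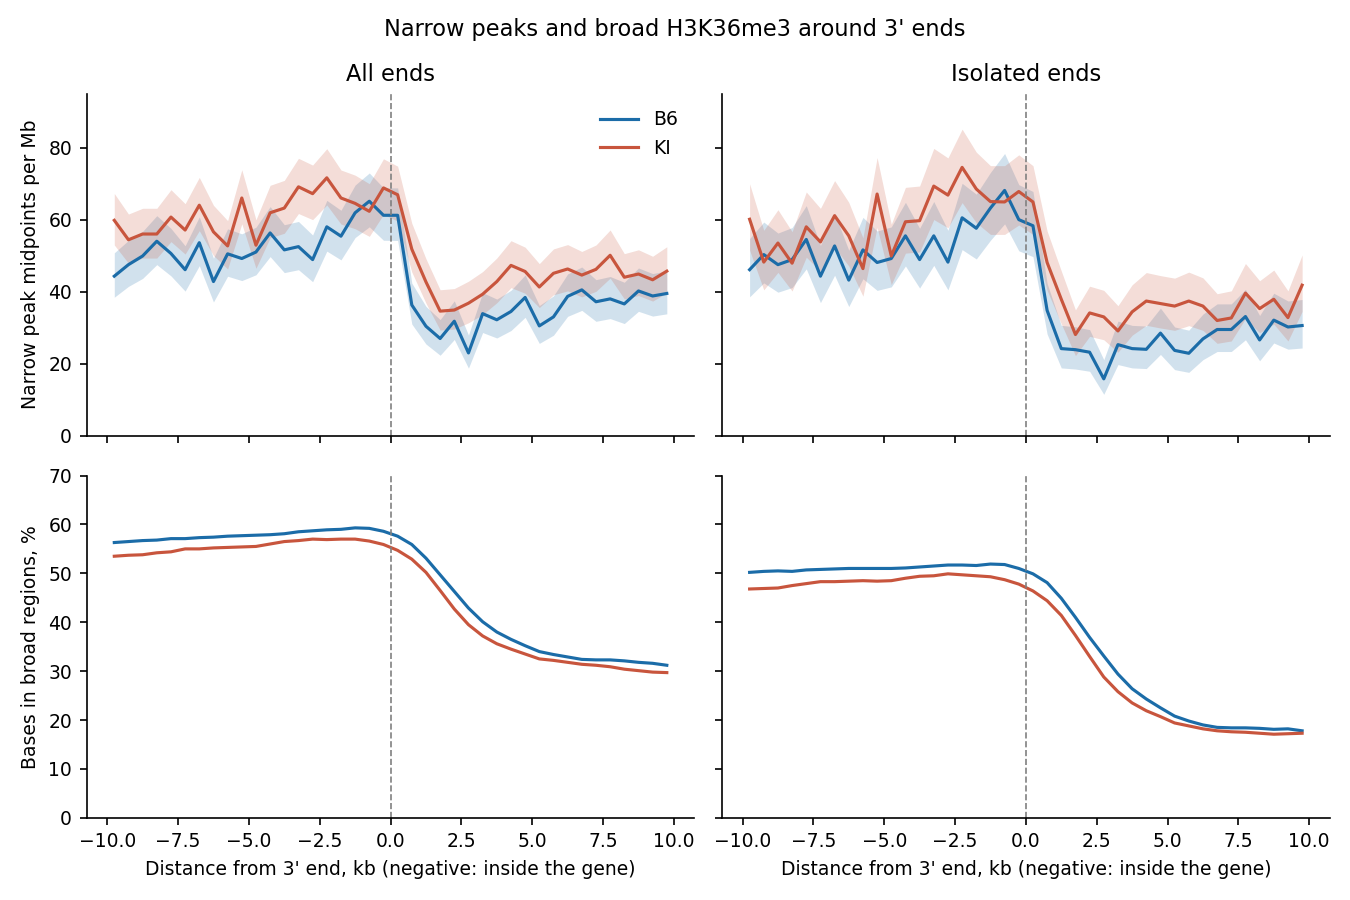
Narrow-peak midpoints per Mb of allowed sequence (top) and the share of bases in broad regions (bottom), in bins of 500 bp, against the distance from the 3' end in kb, for all 9328 ends (left) and 5697 isolated ends (right). B6 is blue and KI red, and shading is the exact 95% counting interval. Peak density is near 60 to 70 per Mb on both sides of the end and drops within 2000 bp past it, over which the broad share of all ends in B6 goes from 57.6% to 49.7%.

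The broad mark ran on past the 3' end and within 2000 bp of it declined more gradually than the narrow peaks did. Inside the end, 58.4% of allowed bases lay in B6 broad regions, against 53.2% past it, a ratio of 1.1, and the KI values were 55.9% and 50.2%, a ratio of 1.12. The broad share of the last 500 bp of the gene was 58.6% in B6 and 55.9% in KI. From 1500 to 2000 bp past the end it was still 49.7% and 46.5%, and from 9500 to 10000 bp past it was 31.2% and 29.7%. Since every narrow peak lies in a broad region of its own strain, the narrow peaks were also counted per Mb of broad sequence. They then numbered 104.1 inside and 72.5 past in B6, a ratio of 1.44, and 117 inside and 97.4 past in KI, a ratio of 1.2. Within 1 kb of the end this KI ratio was 1.06 (0.94 to 1.19), and for genes of 50 kb or longer 1.11 (0.98 to 1.26), so that both intervals included 1. The lowest values per broad Mb in B6 were 53.7 from 2500 to 3000 bp past the end and 54.2 from 1500 to 2000 bp, against 106.3 in the first 500 bp past it. In KI the lowest was 74.5 from 1500 to 2000 bp past, against 122.4 in the first 500 bp. Farther out the values per broad Mb were higher again, at 109.4 in B6 and 136.2 in KI from 4500 to 5000 bp past. From 9500 to 10000 bp past they were 126.6 and 154.2, above the 104.4 and 123.1 of the last 500 bp of the gene. At ends whose whole window lay in broad regions, a set chosen after the data were seen, the ratio of inside to past was 1.59 in B6 (1.38 to 1.83) and 1.15 in KI (1.01 to 1.32).

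The drop past the end was found at isolated ends too. These are the 5697 ends with no other gene of any type from 2 kb inside to 5 kb past the end. There B6 had 171 peaks in the last 500 bp of the gene, 166 in the first 500 bp past it, then 99 and 69, and 68 from 1500 to 2000 bp past. KI had 193, 185, 137, 108 and 80. In steps of 250 bp the density at these ends was 66.7 per Mb in the first step past the end and 49.9 in the next for B6, and 76.5 and 53.4 for KI. The ratio of inside to past was 1.76 in B6 and 1.49 in KI. The last base of the gene was in a broad region at 2879 isolated ends in B6 (50.5%) and at 2689 in KI (47.2%). From those ends the B6 broad region reached a median of 3392 bp past the gene (quartiles 1894 and 6119 bp), and 2 kb or more in 72.9% of cases (71.2% to 74.5%). In KI the median was 2983 bp (1730 and 5388 bp), and 69.4% reached 2 kb or more (67.6% to 71.1%).

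Narrow peaks around 3' ends met a region of the other strain more often than autosomal narrow peaks as a whole did. Of the B6 peaks, 21.5% overlapped a narrow peak of KI by at least 1 bp (19.6% to 23.5%), against 17.7% of all autosomal B6 narrow peaks. Of the KI peaks, 19.2% overlapped a narrow peak of B6 (17.5% to 21.0%), against 14.1% of all. The share was alike on both sides of the end, at 21.2% inside and 22.0% past in B6 and 19.8% and 18.3% in KI. Overlap with any broad region of the other strain was more frequent inside than past. It was 76.4% inside (73.8% to 78.9%) and 69.0% past (65.4% to 72.5%) for B6 peaks, against 56.7% of all autosomal ones. For KI peaks it was 87.5% inside (85.4% to 89.3%) and 82.0% past (79.3% to 84.6%), against 67.9% of all. The broad regions of the other strain themselves covered less of the sequence past the end, as given above. Meeting a region of the other strain was not particular to the ends, and the whole lists also hold peaks outside genes. From 4 to 5 kb inside the end, 384 B6 peaks met a region of the other strain and 115 did not. In KI these were 450 and 84.

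Split in this way, the B6 peaks on a KI broad region but off a KI narrow peak numbered 606 inside and 314 past, and their ratio per Mb was 1.85 (1.61 to 2.13). Those that overlapped a KI narrow peak numbered 233 and 147, with a ratio of 1.52 (1.23 to 1.88). The 466 B6 peaks that met no KI region were divided more evenly, 259 inside and 207 past, with a ratio of 1.2 (0.996 to 1.45). Of the KI peaks, 799 inside and 539 past were on a B6 broad region but off a B6 narrow peak, a ratio of 1.42 (1.27 to 1.59). The KI peaks that overlapped a B6 narrow peak numbered 234 and 155, a ratio of 1.45 (1.18 to 1.79). The 300 KI peaks that met no B6 region were 148 inside and 152 past, a ratio of 0.934 (0.74 to 1.18). These ratios are per Mb of all allowed sequence, of which more lay off the broad regions of the other strain past the end than inside. In a comparison added after the data were seen, peaks were therefore counted by midpoint per Mb of sequence on or off those regions. On KI broad regions B6 had 81.8 peaks per Mb inside and 52 past, a ratio of 1.57 (1.4 to 1.77), and off them 34.2 and 25, a ratio of 1.37 (1.14 to 1.64). On B6 broad regions KI had 97 peaks per Mb inside and 74.3 past, a ratio of 1.31 (1.18 to 1.44), and off them 21 and 20, a ratio of 1.05 (0.841 to 1.32). Only 0.929 of 7.95 Mb inside off KI broad regions was B6 broad sequence, and 0.484 of 7.51 Mb in the reverse case for KI. Per Mb of own broad sequence, B6 had 85.9 inside and 55.2 past on KI broad regions, a ratio of 1.56 (1.39 to 1.75). Off them it had 292.7 and 212.1, a ratio of 1.38 (1.15 to 1.66). KI had 106.4 and 83.5 on B6 regions, a ratio of 1.27 (1.16 to 1.41), and 326.5 and 327.1 off them, 0.998 (0.797 to 1.25). By either count, the intervals on and off the regions overlapped in both strains, so that no difference in ratio between the classes was shown. Per Mb of all allowed sequence, the density of peaks that met no region in steps of 1 kb was 14.3 per Mb in the last kb of the gene, 13.7 in the first kb past it and 10.1 in the next for B6, and 8.9, 9.37 and 7.73 for KI. The peaks that met a region of the other strain went from 48.8 to 35.2 and 18.6 per Mb over the same steps in B6, and from 56.6 to 50 and 30.9 in KI.

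**Figure D2:**
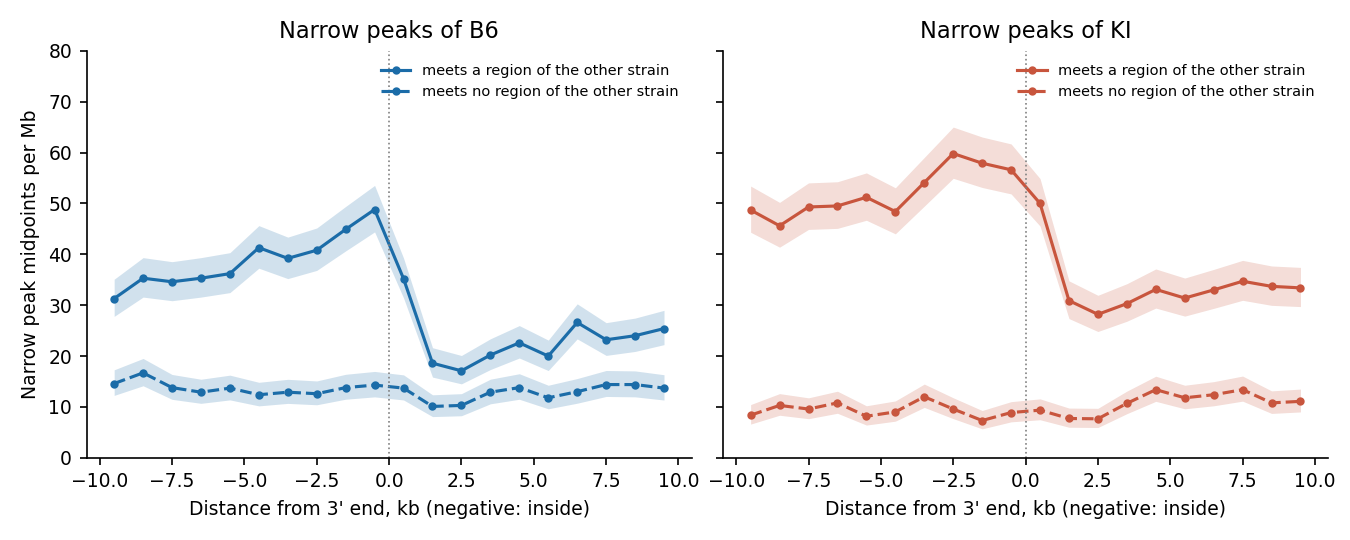
Narrow-peak midpoints per Mb in steps of 1 kb against the distance from the 3' end, for peaks that met any region of the other strain (solid) and peaks that met none (dashed), in B6 (left) and KI (right), both per Mb of all allowed sequence. Shading is the exact 95% counting interval. The solid lines drop past the end, from 48.8 to 18.6 per Mb in B6 and from 56.6 to 30.9 in KI, and the dashed lines stay between 7 and 17 per Mb throughout.

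Inside the gene, most of the peaks lay on the 3' UTR. In B6, 702 of 1098 inside peaks had their midpoint there (63.9%, 61% to 66.8%), and in KI 713 of 1181 (60.4%, 57.5% to 63.2%), where the 3' UTR made up 56.3% of the allowed sequence inside. Introns held 25.9% of the inside peaks in B6 and 27.2% in KI, against 33% of the sequence. Per Mb, the 3' UTR held 69.1 B6 peaks and 70.1 KI peaks, coding exons held 59 and 79.5, and introns held 47.6 and 53.8. Over the whole autosomal lists, 76.3% of B6 and 73.2% of KI narrow peaks had their midpoint in a protein-coding gene, which the inside peaks all did by the way they were chosen.

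Past the end, most of the peaks lay in sequence without any annotated gene, 517 of 668 in B6 (77.4%, 74% to 80.5%) and 645 of 846 in KI (76.2%, 73.2% to 79.1%). This sequence made up 83.5% of what was allowed past the ends, and its density was 35.8 per Mb for B6 and 44.6 for KI. Where the window ran into a protein-coding gene on the opposite strand, a convergent neighbour, the density was 56.5 per Mb in B6 from 107 peaks and 74.5 in KI from 141 peaks. Such sequence held 16.0% of the B6 and 16.7% of the KI peaks past the end, against 10.9% of the allowed bases.

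**Figure D3:**
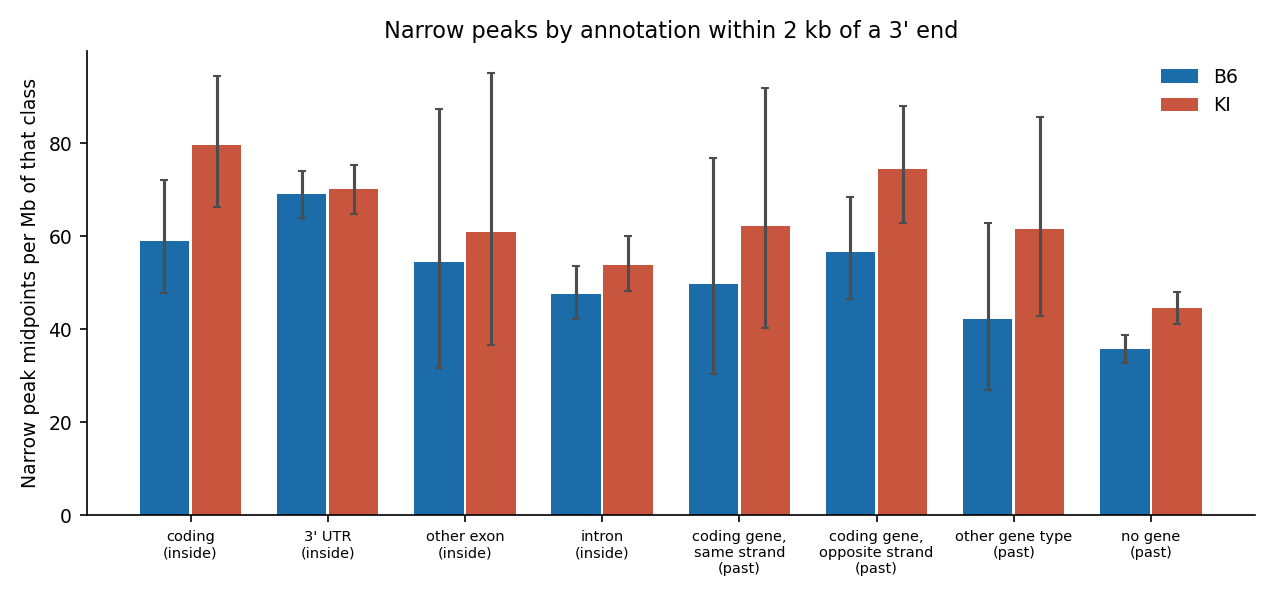
Narrow-peak midpoints per Mb of each annotation class within 2 kb of a 3' end, in B6 (blue) and KI (red), with the 4 classes inside the gene on the left and the 4 past it on the right. Error bars are exact 95% counting intervals. The lowest bars are those of sequence past the end with no gene, 35.8 per Mb in B6 and 44.6 in KI.

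The broad regions that carried the inside peaks reached past the end of the gene in most cases. Inside peaks sat in broad regions with a median length of 5500 bp in B6 and 5000 bp in KI, and peaks past the end in shorter ones, 4000 bp and 3500 bp. The broad region of an inside peak ended before the gene did in 155 of 1098 cases in B6 (14.1%, 12.1% to 16.3%) and in 183 of 1181 in KI (15.5%, 13.5% to 17.7%). Its far edge was a median of 1489 bp past the end of the gene in B6 and 1380 bp in KI. For peaks past the end, the broad regions of which reach beyond it by the way they were chosen, the edge was at 2707 bp and 2661 bp. The peaks sat near the middle of their broad regions, at a median relative position along the direction of the gene of 0.581 inside and 0.577 past in B6, and of 0.588 and 0.56 in KI.

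Narrow peaks were found at a minority of 3' ends. An end with a peak in a strain often had none in the other, but had one more often than ends as a whole. At least 1 peak lay around 1632 ends in B6 (17.5%) and 1842 in KI (19.7%), and 842 ends had one in each strain. Thus 51.6% of the B6 ends had a KI peak, against 19.7% of all ends. Of the KI ends 45.7% had a B6 peak, against 17.5% of all ends. Exactly 1 peak was found at 1502 of these ends in B6 and 1672 in KI, no end had more than 3, and 79 ends in B6 and 107 in KI had peaks on both sides. The last base of the gene itself lay in a broad region at 5422 ends in B6 (58.1%) and 5167 in KI (55.4%), and in both strains at 4923 (52.8%). Most broadly marked ends thus had no narrow peak.

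The excess inside was found on each autosome in B6, with a ratio of inside to past counts from 1.2 on chromosome 12 to 3.18 on chromosome 19 and a median of 1.65. In KI it was found on 18 of 19 autosomes, with a median of 1.35, and chromosome 18 had 29 peaks on each side. On chromosome 19 the counts were 35 and 11 in B6 and 40 and 20 in KI.

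**Figure D4:**
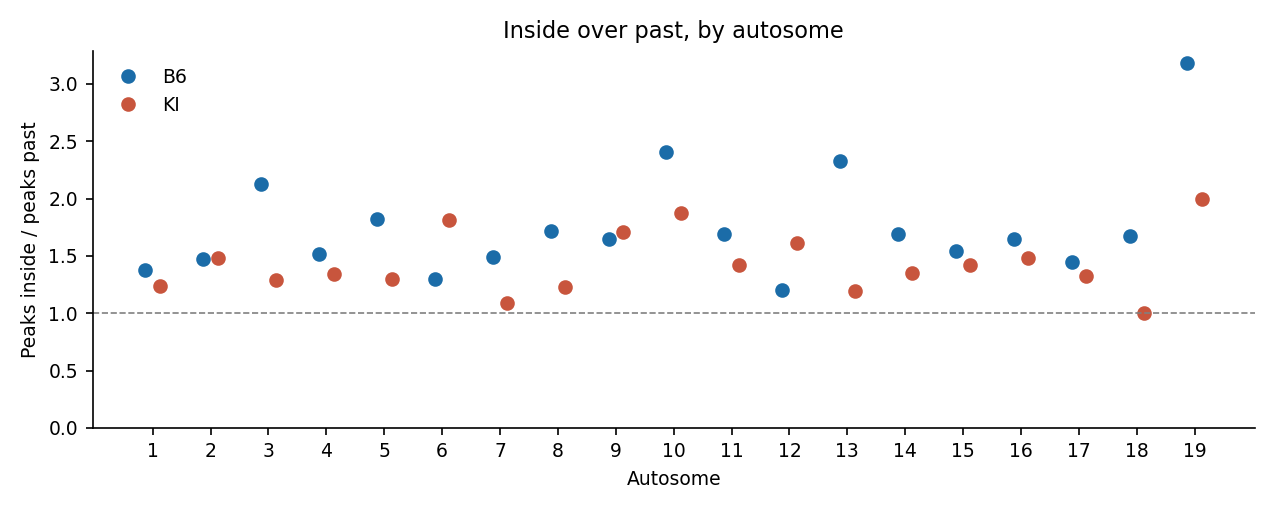
Ratio of narrow peaks inside to narrow peaks past the 3' end on each of 19 autosomes, in B6 (blue) and KI (red). The dashed line marks equal counts; the B6 points are all above it and the KI point of chromosome 18 is on it.

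By gene length, the ratio of inside to past counts was 1.84 in B6 and 1.5 in KI for genes of 20 to 50 kb, 1.56 and 1.46 for 50 to 100 kb, 1.58 and 1.12 for 100 to 200 kb, and 1.16 and 1.21 for genes of 200 kb or longer. These are ratios of counts and not of peaks per Mb. For genes of 200 kb or longer the share inside was 53.7% in B6 (46.3% to 60.9%) and 54.8% in KI (47.6% to 61.9%). For genes of 100 to 200 kb it was 52.8% in KI (47.2% to 58.5%). Each of these intervals includes 50%, an equal split. Ends with a peak were 17.9% and 20.5% of the shortest class and 19% and 19.1% of the longest. By broad marking of the gene body, ends of genes with 50% or more of their length in broad regions had a peak in 20.9% of cases in B6 and 24.8% in KI. Genes with a lower share above 0 had one in 22.5% and 21.3% of cases. An inside peak brings its own broad region into the gene body and so places its gene in a class above 0. The rates of these classes are thus not independent of the peaks themselves. Genes with no broad region in their body had a peak at 10 of 1775 ends in B6 and 12 of 1496 in KI, each of them past the end, as no inside peak was possible there.

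The label of the cells was checked by the broad marking of gene bodies. The 8 spermatocyte markers, among them Sycp1, Dmc1 and Spo11, were each covered to at least 82.4% in both strains. Of 5 autosomal Sertoli cell markers, 1 in B6 and 0 in KI were covered to 50% or more, with a median of 42% in B6 and 0.333% in KI, and the defining genes Sox9 and Amh were at 45.2% and 42% in B6 and at 0% and 0.333% in KI. The Sertoli cell marker above 50% in B6 was Wt1, at 71.7% against 8.49% in KI. Of 5 Leydig cell markers only Star was covered to 50% or more, with 100% in both strains. Cyp11a1 was at 0% in B6 and 1.51% in KI, and Cyp17a1, Hsd3b1 and Insl3 were at 0 in both. Broad marking of the Sertoli cell genes was thus higher in the B6 list than in the KI list, and its part in the B6 values above was not tested.

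The 10 pairs of B6 and KI peaks that matched most closely covered nearly the same bases in both strains. Over all overlapping pairs on the same side of the same end, 215 inside and 137 past, the median reciprocal overlap was 40.3% and 40.2%. Their midpoints were a median of 147 bp and 157 bp apart. Peaks of the 2 strains at the same end that did not overlap are not among these pairs. Inside the gene the closest match was at Pik3ap1, an adaptor of phosphoinositide 3-kinase signalling. Its B6 peak at chr19:41347289-41347855 (567 bp) and its KI peak at chr19:41347308-41347855 (548 bp) had a reciprocal overlap of 96.6%, and both lay on the 3' UTR, 709 bp and 718 bp inside the end. KI had 2 more peaks there, 234 bp inside and 1261 bp past the end. The peaks of Ttc38, a tetratricopeptide repeat gene, overlapped by 96.3% on its 3' UTR, 1991 bp and 1979 bp inside the end. The zinc finger gene Glis1 had peaks of 902 bp in B6 and 978 bp in KI in an intron, with an overlap of 92.2%. The predicted genes 2610305D13Rik and Gm13145, both on chromosome 4, had pairs on coding exons with overlaps of 96.2% and 92.3%.

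Past the end, the closest pair was at Lmbrd1, which encodes a lysosomal membrane protein of cobalamin export. Its peaks at chr1:24824512-24824941 in B6 and chr1:24824495-24824942 in KI overlapped by 96%, and their midpoints lay 1582 bp and 1574 bp past the end. They sat in separate broad regions of 3000 bp in B6 and 2000 bp in KI, which began after the last base of the gene at chr1:24823144. The peaks of Synj2bp, a mitochondrial outer membrane protein gene, were 1793 bp and 1790 bp past the end and overlapped by 95.2%, in broad regions of 9500 bp and 6000 bp that crossed the end. The other 3 pairs lay on the end itself. At Hnrnpf, which encodes an RNA-binding protein of splicing and 3' end processing, the B6 peak at chr6:117875516-117875977 and the KI peak at chr6:117875543-117875973 both held the 30 bases printed above, and their midpoints were 107 bp and 119 bp past the end. The midpoints were 10 bp and 27 bp past the end at Rprd1a, which encodes a protein that binds the tail of RNA polymerase II, and 165 bp and 144 bp past it at 0610010O12Rik. Their overlaps were 93.3% at Hnrnpf, 93.4% at Rprd1a and 94.2% at 0610010O12Rik.

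The 3 widest peaks per strain and side all spanned the 3' end, apart from that of Rnf213, which began just past it. As midpoints had to lie within 2000 bp of the end, peaks of such widths would often cross it. In B6 the widest were at Nhej1, a factor of non-homologous end joining, with 3363 bp, at Litaf with 3000 bp and at Ankmy2 with 2708 bp, all with their midpoints past the end. The widest inside were at Shc4 with 2476 bp, at D2hgdh with 2352 bp and at Ddb2, a sensor of ultraviolet damage, with 2146 bp. In KI the widest past the end were at Rnf213 with 3044 bp, 1500003O03Rik with 2363 bp and Dnajc15 with 2171 bp. Those inside were at Bivm with 2493 bp, at Slc7a1, a transporter of cationic amino acids, with 2413 bp and at Chmp2b, an ESCRT-III subunit, with 1949 bp. A wide peak in a strain was not always wide in the other. The Nhej1 peak of B6 met a KI peak of 432 bp at the same end, the Chmp2b peak of KI met a B6 peak of 337 bp, and the Ankmy2 peak of B6 met KI peaks of 293 bp and 219 bp. At Ddb2 and Litaf the KI list had broad enrichment and no narrow peak under the B6 peak, and at Bivm, Slc7a1, Rnf213 and 1500003O03Rik the same held for the B6 list under the KI peak.

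**Figure D5:**
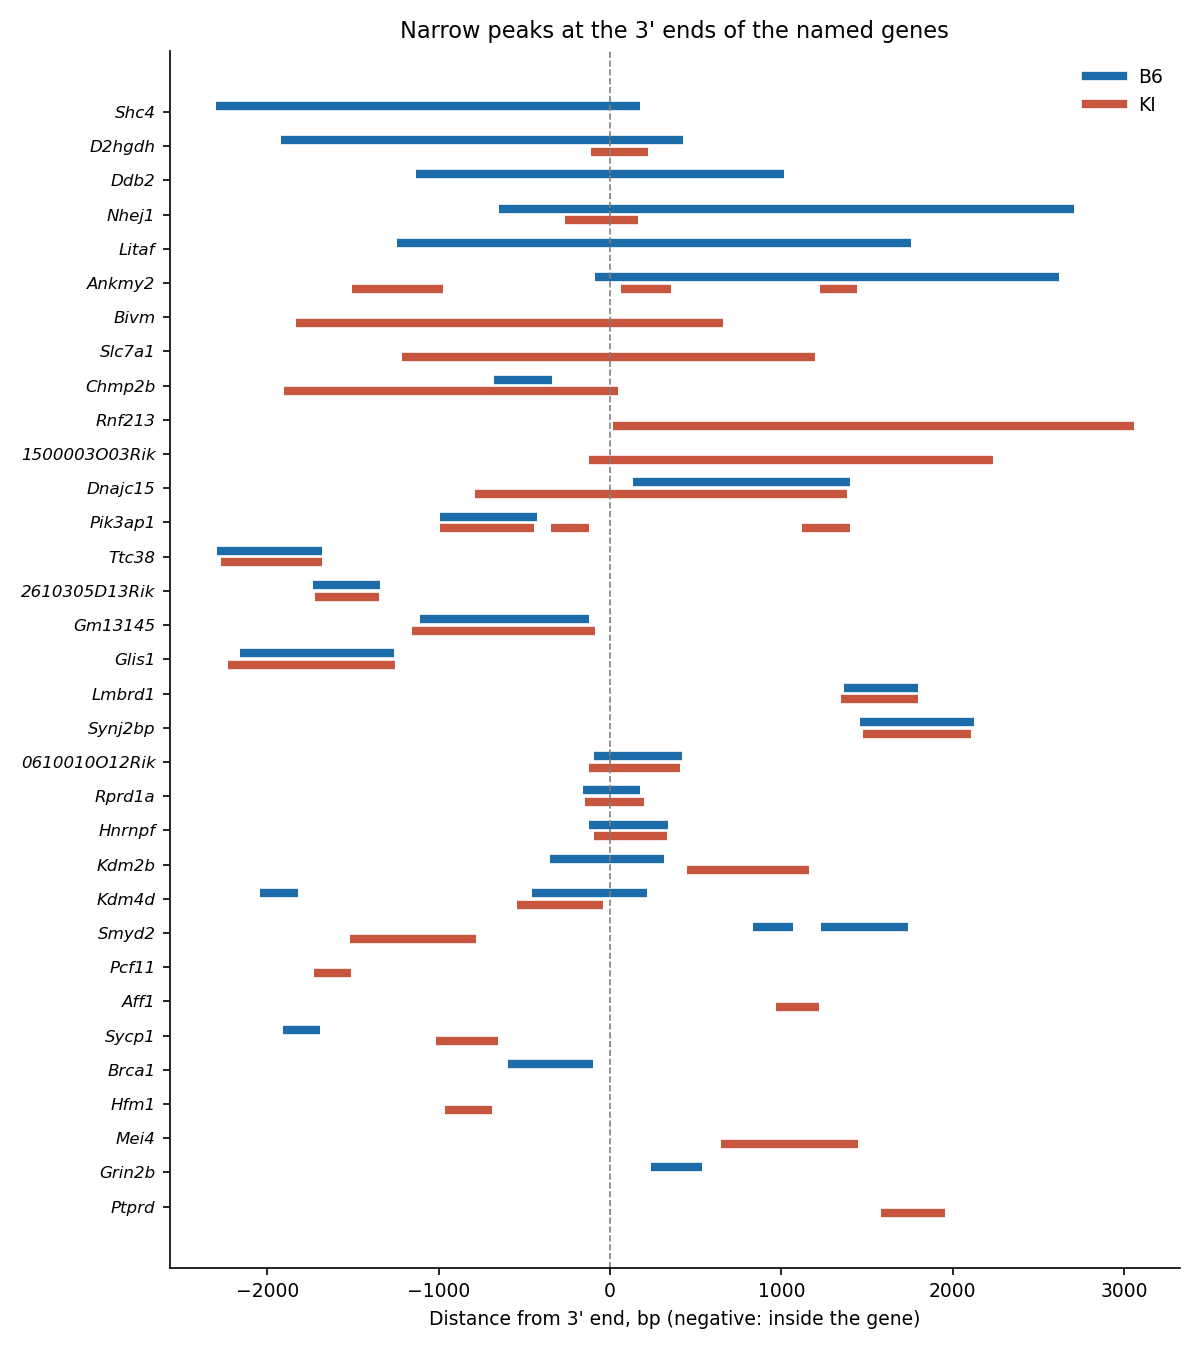
Narrow peaks of B6 (blue) and KI (red) around the 3' ends of the genes named in the text, drawn to scale as distance in bp from the last base of the gene, with negative values inside. The 10 closest pairs have bars of nearly equal position, and most of the widest peaks cross the dashed line at the end.

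Genes of 5 functional lists were then looked up. All of these lists counted autosomal protein-coding genes of 20 kb or longer, and their counts stand beside the 17.5% of all ends with a peak in B6 and 19.7% in KI. Of 14 genes of H3K36 methylation, 3 had a peak in B6 and the same 3 in KI. Kdm2b, a demethylase of H3K36, had a B6 peak of 665 bp centred 18 bp inside the end and a KI peak of 713 bp centred 807 bp past it, which did not overlap. Kdm4d belongs to a family of histone demethylases and is itself known for H3K9 rather than H3K36. Its peaks at chr9:14266775-14267448 in B6 and chr9:14267035-14267535 in KI overlapped on the 3' UTR, and B6 had another on coding sequence 1932 bp inside the end. Smyd2, a lysine methyltransferase of histone and other proteins, had 2 B6 peaks 951 bp and 1485 bp past the end where KI had neither a narrow peak nor a broad region, and 1 KI peak of 738 bp in an intron 1152 bp inside it.

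Of 14 genes of messenger RNA 3' end processing, 0 had a peak in B6 and 1 in KI, although the last base of 13 of them was in a broad region in each strain. The gene was Pcf11, a subunit of the cleavage complex that also acts in termination, with a KI peak of 216 bp in an intron 1618 bp inside the end. Of 19 genes of RNA polymerase II elongation, 0 had a peak in B6 and 1 in KI, and 18 had their last base in a broad region in each strain. This gene was Aff1, a scaffold of the super elongation complex, with a KI peak of 248 bp centred 1094 bp past the end and no narrow peak in B6, which had a broad region there.

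Of 24 meiotic chromosome and recombination genes, 3 had a peak in B6 and 3 in KI, with 1 of them in both and 5 in either. Sycp1, the transverse filament of the synaptonemal complex, had peaks in both strains in introns, 1801 bp inside the end in B6 and 835 bp inside in KI, which did not overlap. Brca1, a gene of recombinational repair, had a B6 peak of 495 bp on its 3' UTR centred 348 bp inside the end. Hfm1, a helicase of crossover formation, had a KI peak of 277 bp in an intron. Mei4, a gene of meiotic double-strand break formation, had a KI peak of 804 bp centred 1048 bp past the end, in a broad region of 2000 bp where B6 had none. The gene bodies of this list were covered by broad regions to a median of 99.1% in B6 and 98.8% in KI, against 58.8% and 48.7% over all 9328 genes.

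Of 25 neuronal adhesion and channel genes, 1 had a peak in B6 and 1 in KI, and the median coverage of their bodies was 1.46% and 2.39%. Grin2b, a subunit of the NMDA receptor, had a B6 peak of 295 bp centred 388 bp past the end. Ptprd, a receptor tyrosine phosphatase of synaptic adhesion, had a KI peak of 375 bp centred 1767 bp past the end. Neither peak met a region of the other strain. These lists are small, and no test was run over them.

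A peak past the end of each of Smyd2 and Aff1 is printed because both lay in sequence with no annotated gene in GENCODE, about 1 kb beyond the ends shown above, 1 of them called in B6 only and 1 in KI on B6 broad enrichment. Both are 5' to 3' on the strand of the gene in mm9, and AATAAA, which would be in capitals, occurred in neither.
Smyd2, B6 peak, chr1:191703304-191703536, minus strand: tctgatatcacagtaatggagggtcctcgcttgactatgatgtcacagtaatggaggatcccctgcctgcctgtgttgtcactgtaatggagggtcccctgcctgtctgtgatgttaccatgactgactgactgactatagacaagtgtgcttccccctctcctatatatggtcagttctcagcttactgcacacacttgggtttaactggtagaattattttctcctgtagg
Aff1, KI peak, chr5:104285312-104285559, plus strand: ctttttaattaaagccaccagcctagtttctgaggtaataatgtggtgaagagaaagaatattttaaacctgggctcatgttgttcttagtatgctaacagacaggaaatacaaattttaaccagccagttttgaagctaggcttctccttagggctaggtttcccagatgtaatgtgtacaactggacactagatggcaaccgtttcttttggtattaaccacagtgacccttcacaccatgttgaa
The Smyd2 peak had a GC content of 47.2% and the Aff1 peak of 39.5%, and each held 1 CpG.

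The base composition of the peaks was close to that of the sequence around the ends, and the share with the hexamer differed from it in some classes. Windows of 300 bp centred on the peaks had a GC content of 42.8% inside and 44.2% past the end in B6 and 45% and 44.9% in KI, against 44.3% and 44.6% over all allowed positions. AATAAA on the strand of the gene occurred in 19.4% of the windows inside in B6 (17.1% to 21.9%) and 16.6% in KI (14.5% to 18.8%), against 20.2% of allowed positions. Past the end it occurred in 24.9% in B6 (21.6% to 28.3%) and 19.9% in KI (17.2% to 22.7%), against 19.7%. That last share is not matched to the distances of the peaks. Of 668 B6 peaks past the end, 147 lay within 250 bp of it, against 2262492 of 17312481 allowed positions. The share was highest in peaks centred 1 to 250 bp past the end, the windows of which reach back into the gene. There 50.3% of B6 windows (42% to 58.7%) and 43% of KI windows (35.5% to 50.8%) held it, against 40.4% of allowed positions. At more than 250 bp past the end the shares were 17.7% and 13.9%, against 16.6%. All autosomal peaks held it in 19% of B6 windows and 17.5% of KI windows, as the mean of both strands. A match of these letters is not a used cleavage site, and no transcript ends were measured here.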

How the data were processed

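The peaks around 3' ends come from H3K36me3 ChIP-seq of spermatocytes of B6 and KI mice, the groups being the strain labels. The authors aligned reads to mm9 with BWA (version 1.2.3 in the submitters' processing notes), pooled 2 replicates per strain and ran ZINBA with the input as control, on windows of 1000 bp (Winsize) shifted by 500 bp (Offset), with a WinGap of 250 and a pWinSize of 750. The deposited values are positions, 3 columns of chromosome, start and end, taken here as 1-based and inclusive.

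Genes came from GENCODE vM1. A peak was placed by its midpoint against the last base of the gene, ties going to inside. Code ran in Python 3.11.15 with numpy 2.4.6, pandas 2.3.3 and scipy 1.17.1, and figures in matplotlib 3.10.9. Tested on peaks planted at real isolated ends away from gene starts, it recovered 900 of 900 at the planted distance. This did not exercise the choice between neighbouring ends or the exclusion near starts. Its overlaps equalled those of bedtools 2.31.1.

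The members, lists and comparisons were chosen with earlier results of these data known. Genes named are those of the 3 widest peaks per strain and side, the 5 closest pairs per side, and up to 4 genes a list, those with peaks in both strains first and then in alphabetical order. Alternatives were the window, gene length, definition of the 3' end, distance from starts, isolated ends, merging of peaks within 1000 bp, whole peaks and the minimum overlap.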

Additional observations from a re-analysis of the deposited data

How the results depend on the processing

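No paired analysis was possible because the replicates of each strain were merged before peaks were called, and no replicate could be left out. The peak lists hold no depth, so what depth limits cannot be measured here. Over all alternatives the ratio of inside to past stayed above 1, with B6 values from 1.3 to 1.79 and KI values from 1.11 to 1.51, and 0 values reversed. Of the alternative values, 41 moved and 81 did not, which for a ratio or share means that they stayed within the main interval and for a count that they were within 1.5 times the main count. For KI the ratio within 1 kb, and that per broad Mb within 1 kb and for genes of 50 kb or longer, had intervals that included 1. Where a value moved, the cause was not tested beyond the construction of the alternative.

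With 1 kb on each side the ratio of inside to past was 1.3 in B6 and 1.11 in KI, per broad Mb 1.25 (1.1 to 1.42) and 1.06 (0.94 to 1.19), that of broad bases 1.04 and 1.05, and the members were 996 and 1120. With 5 kb the ratio was 1.51 in KI, per broad Mb 1.25 in B6, of broad bases 1.33 and 1.37, the members 3945 and 4715, and the KI share past the end that overlapped a B6 narrow peak 15.3%. With genes of 10 kb or longer the ratio was 1.75 and 1.48 and per broad Mb 1.59 and 1.32. With genes of 50 kb or longer it was 1.4 in B6 and 1.24 in KI, per broad Mb 1.28 and 1.11 (KI interval 0.98 to 1.26), and the members were 884 and 994. At isolated ends it was 1.76 and 1.49 from 1111 and 1269 members. With whole peaks on 1 side it was 1.79 and 1.47, and per broad Mb 1.63 and 1.32. At ends with the whole window in broad regions, an alternative chosen after the data were seen, it was 1.15 in KI, and the KI share inside that overlapped a B6 narrow peak was 16.9%. With an overlap of 50% of the shorter peak, the shares that overlapped a narrow peak of the other strain were 15.2% inside and 15% past in B6 and 13.7% and 12.6% in KI. With broad regions counted they were 76.4% and 69% in B6 and 87.5% and 82% in KI.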
